A study of Mus musculus with 6 samples.

Results

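Proopiomelanocortin (Pomc) is the precursor from which hypothalamic neurons cut the melanocortins, peptides that lower food intake, and beta-endorphin. Arcuate POMC neurons arise from progenitors that also give rise to neurons of other peptide types, among them the Agrp and Tac2 neurons, so that a Pomc reporter labels cells that go on making the peptide and cells that have largely stopped. The neurons described here are the Pomc-high neurons of the early postnatal mouse hypothalamus, set against the Pomc-low neurons of the same library. They were 2340 cells, 1572 at P5 and 768 at P12, of 5810 postnatal neurons and of 13953 cells in all 6 libraries of the series.

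Cells were sorted for red fluorescence from hypothalami of C57BL/6 mice that carry the Pomc-TdDsRed transgene, whose fluorescent protein is driven by Pomc regulatory sequence, and their transcripts were counted as unique molecular identifiers (UMIs) in 10x Genomics droplets. Both parents carried the transgene, and no animals without it are among the libraries. Each of 6 ages, from E11.5 to P12, was 1 library from pooled hypothalami of at least 6 animals. The younger postnatal library is P5 in its title and P6 in its protocol, and is called P5 here. With 1 library per age there is no test of any difference below, no value of the spread between animals, and each interval is an exact 95% interval that covers counting error only.

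Members were selected on measured values. A cell was called a neuron where at least 3 of the 6 genes Elavl3, Mapt, Snap25, Stmn2, Syt1 and Tubb3 had a UMI, Pomc-high where Pomc made up at least 10 of every 10000 of its UMIs, and Pomc-low where it made up fewer than 3. Pomc and the 6 neuronal genes were thus used by the rule, and their values, like every ratio of this contrast, are given as a description. By this rule 1564 neurons at P5 and 1206 at P12 were Pomc-low, and 446 and 254 lay between the limits. Pomc-high neurons made up 43.9% (42.3 to 45.5) of the neurons at P5 and 34.5% (32.5 to 36.5) at P12. Just inside the upper limit, from 10 to 11 Pomc UMIs per 10000, stood 40 neurons at P5 and 14 at P12, with medians of 22 and 23.5 Pomc UMIs, and just outside it, from 9 to 10, stood 36 and 12 neurons with medians of 17 and 25.

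The name neuron held for the Pomc-high cells of both libraries and not for the Pomc-low cells of P12. Of the 1206 Pomc-low cells there, 768 (63.7%) had fewer than 4 UMIs of the neuronal genes for each UMI on lists of microglial, astrocyte, oligodendrocyte, leptomeningeal and endothelial genes. Over all 1206 Pomc-low cells the microglial genes (9, among them the complement genes C1qa, C1qb and C1qc) summed to 103 UMIs per 10000, against 4.83 in the Pomc-high cells. The 6 neuronal genes had a median over the same cells of 6.90 per 10000, against 45.2. The same check was failed by 75 of 768 Pomc-high cells (9.77%) at P12, by 30 of 1572 (1.91%) at P5 and by 119 of 1564 Pomc-low cells (7.61%) at P5. The P12 group is therefore called Pomc-low only by its rule, and each result is also given for the cells that passed, called marker-checked neurons: 1542 Pomc-high against 1445 Pomc-low at P5, and 693 against 438 at P12. Their microglial genes summed to 0.470 against 0.536 UMIs per 10000 at P5 and to 1.08 against 1.16 at P12, low values that the check itself selected for. Pomc-high neurons were 55.8% of the marker-checked neurons at P12. The Pomc-high cells were also deeper, with a median of 25433 against 15321 UMIs at P5 and 32863.5 against 14201.5 at P12, which narrowed to 33384 against 22511 in the marker-checked neurons of P12. Libraries of P5 and P12 shared 1 cell barcode.

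**Figure D1:**
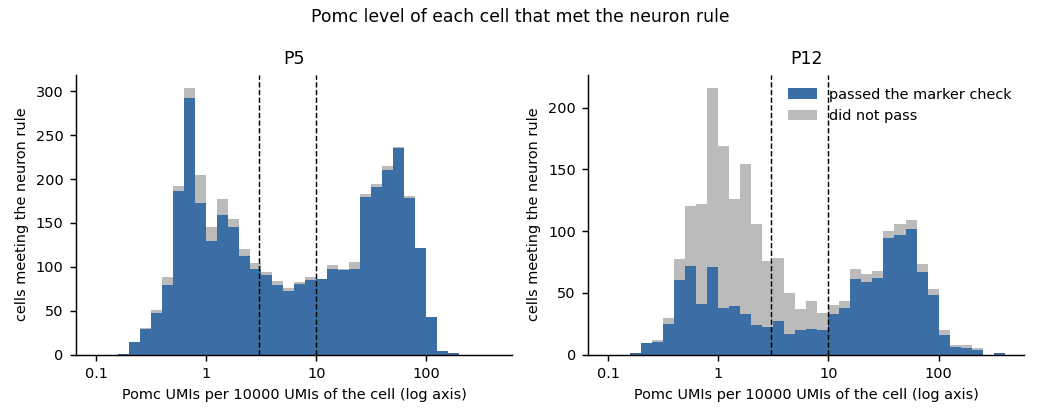
Number of cells that met the neuron rule (vertical axis) by Pomc UMIs per 10000 UMIs of the cell (horizontal log axis, bins of 0.1 on the log10 scale), at P5 and P12; dashed lines mark the limits of 3 and 10, and grey stands for cells that did not pass the marker check. Both libraries have a low and a high mode, and at P12 most of the low mode is grey, 768 of 1206 cells below 3.

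A level is the sum of a gene's UMIs over the cells of a group per 10000 summed UMIs of that group. Pomc itself stood at 44.1 per 10000 in Pomc-high neurons at P5 and at 43.7 at P12. Single Pomc-high neurons ranged around a median of 40.5 up to 166 per 10000 at P5, and had a median of 39.5 at P12. In Pomc-low neurons Pomc stood at 1.04 and 1.06, a level bounded by the limit of 3 and by the 1 Pomc UMI that every deposited cell has. As a reference for genes other than Pomc, microglial cells of the same libraries were taken, 283 at P5 and 1174 at P12, which failed the neuron rule and had at least 3 microglial genes. Whether the Pomc UMIs of Pomc-low neurons are their own transcripts or free RNA was not tested.

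Of the genes measured, 8808 at P5 and 9692 at P12 had a mean level of at least 0.1 UMI per 10000 over both groups and were compared. By the rule, 95 of them (1.08%) were at least 2-fold higher in Pomc-high neurons at P5 and 317 (3.27%) at P12, while 303 (3.44%) and 1135 (11.7%) were at least 2-fold lower. In marker-checked neurons the counts were 96 (1.1%) and 96 (1.05%) higher and 226 (2.59%) and 308 (3.38%) lower. Past 2-fold in both libraries were 72 genes higher (0.839% of 8583) and 186 lower (2.17%) by the rule, and 62 higher (0.728% of 8517) and 160 lower (1.88%) in marker-checked neurons. Of these, 54 genes were higher and 82 lower under both definitions. The lower genes by the rule include C1qa, at 0.745 against 17.1 UMIs per 10000 at P12, whose levels in marker-checked neurons were 0.148 against 0.161. Apoe, a lipid carrier of glia, likewise went from 2.18 against 46.4 to 0.986 against 1.02. Other genes of this kind on the lower side were C1qb, C1qc, Tyrobp, Selenop and Lgmn, each lower by the rule in both libraries, and none of them was past 2-fold in marker-checked neurons of either. The check selects on C1qa, C1qb and C1qc themselves, so their low levels there were largely set by it.

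**Figure D2:**
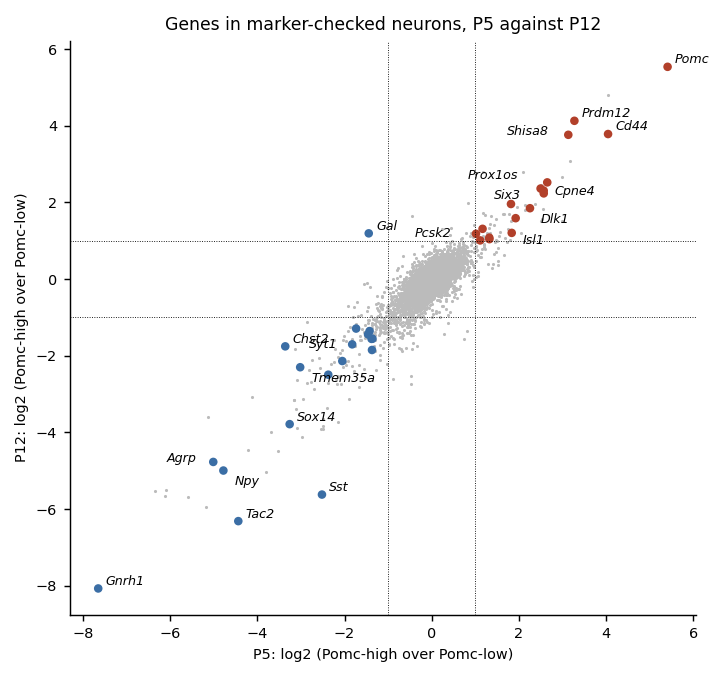
Log2 ratio of Pomc-high over Pomc-low marker-checked neurons at P5 (horizontal) and at P12 (vertical) for 8517 genes compared in both libraries, with 0.001 added to each level; dotted lines mark 2-fold, red and blue points are named genes. Pomc (42.4-fold and 46.6-fold) stands at the upper right and Gnrh1 and Tac2 at the lower left, and Gal, at the upper left, is lower at P5 and higher at P12.

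The other 5 marker genes of the Pomc-high neurons were higher in both libraries, as their choice as markers fixed. Six3, a homeodomain transcription factor of the forebrain, stood at 3.79 against 0.659 UMIs per 10000 at P5 and at 3.79 against 0.475 at P12. It was 5.75-fold (5.48 to 6.03) and 7.97-fold (7.46 to 8.53) higher, and 5.64-fold and 5.15-fold higher in marker-checked neurons. Shisa8, which encodes an auxiliary protein of AMPA glutamate receptors, stood at 0.967 against 0.105 and at 1.18 against 0.083. Its ratio was 9.23-fold (8.2 to 10.4) at P5 and 14.2-fold (12.1 to 16.6) at P12. Cd44, the receptor for hyaluronan, had the largest P5 ratio of these 5, with 0.397 against 0.0233 or 17-fold (13.3 to 22.1). At P12 its level was 0.963 against 0.0674, 14.3-fold (12 to 17.1) higher, so that the level in Pomc-high neurons was over 2 times that at P5 while the ratio was not larger. Cpne4, a calcium-dependent phospholipid-binding protein, stood at 2.02 against 0.325 and 2.36 against 0.319, or 6.21-fold (5.8 to 6.66) and 7.4-fold (6.82 to 8.04) higher. In marker-checked neurons of P12 its ratio was 4.72-fold (4.32 to 5.16), below that by the rule by more than 1.5 times. Prox1os, a noncoding transcript that runs from the opposite strand next to the homeodomain gene Prox1, stood at 0.654 against 0.101 and 0.553 against 0.0571, or 6.46-fold (5.72 to 7.32) and 9.68-fold (8.01 to 11.8) higher, with 5.8-fold in marker-checked neurons of P12. Prox1 itself was 4.43-fold (4.01 to 4.9) and 3.97-fold (3.56 to 4.43) higher, and since the spans of both genes overlap at their starts, reads of that stretch could be told apart by strand only.

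In single cells these 5 genes were found in part of the Pomc-high neurons. Each marker-checked cell was thinned to 3000 UMIs so that depth did not differ, which left out 6 Pomc-high neurons at P5 and 1 at P12. Six3 then had a UMI in 64.6% (62.2 to 67) of Pomc-high against 13.4% (11.6 to 15.2) of Pomc-low neurons at P5, with 2.12% in microglial reference cells, and in 66.3% (62.7 to 69.8) against 11.2% (8.39 to 14.5) at P12, with 2.99% in the reference. Before thinning it was found in 97.5% and 98% of Pomc-high neurons. Cpne4 was found in 43.3% (40.8 to 45.8) and 48% (44.2 to 51.8) of thinned Pomc-high neurons. Shisa8 was found in 20.6% (18.6 to 22.7) and 24% (20.9 to 27.3), and Prox1os in 18% (16.1 to 19.98) and 15% (12.4 to 17.9). Cd44 was found in 10.7% (9.18 to 12.3) and 21.1% (18.1 to 24.3) of Pomc-high neurons. In Pomc-low neurons it was found in 0.415% (0.153 to 0.902) and 1.14% (0.372 to 2.64), which was no more than in the microglial reference at P5, 1.41% (0.386 to 3.58), and close to the 1.11% (0.593 to 1.89) at P12. At 3000 UMIs, 17.1% of the Pomc-high neurons at P5 and 21.5% at P12 had UMIs of 3 or more of the 5 genes, against 0.554% and 0.228% of the Pomc-low neurons, and 14% and 10.5% of the Pomc-high neurons had none of them. Unthinned, the shares in Pomc-high neurons were 46.4% and 71.3% for Cd44, so a thinned cell without a UMI does not show that the cell lacks the gene.

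The promoters of these genes are shown because their transcripts were higher in the same cells. On mouse genome build GRCm38, Pomc lies at chr12:3954951-3960642, plus strand, Six3 at chr17:85613608-85629302, plus strand, Cpne4 at chr9:104547286-105034544, plus strand, Shisa8 at chr15:82206168-82212815, minus strand, Cd44 at chr2:102811141-102901665, minus strand, and Prox1os at chr1:190170296-190217276, plus strand. RefSeq windows (GRCm38.p6, 250 bases before to 50 after the start, printed 5′ to 3′ on the strand of the gene) were found for 5 of the 6 markers. Homeodomain proteins such as Isl1 bind DNA at sites that hold the letters TAAT, and for Pomc the known neuronal sites of Isl1 and Nkx2-1 lie in distant enhancers outside this window. TAAT on either strand is in capitals.
Pomc, chr12:3954695-3954994: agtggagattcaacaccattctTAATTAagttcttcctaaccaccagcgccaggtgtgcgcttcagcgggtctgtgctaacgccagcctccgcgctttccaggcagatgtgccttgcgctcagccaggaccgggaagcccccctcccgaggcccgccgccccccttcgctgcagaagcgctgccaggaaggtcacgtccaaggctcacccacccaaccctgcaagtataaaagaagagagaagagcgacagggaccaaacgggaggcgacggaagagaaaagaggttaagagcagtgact
Six3, chr17:85620584-85620883: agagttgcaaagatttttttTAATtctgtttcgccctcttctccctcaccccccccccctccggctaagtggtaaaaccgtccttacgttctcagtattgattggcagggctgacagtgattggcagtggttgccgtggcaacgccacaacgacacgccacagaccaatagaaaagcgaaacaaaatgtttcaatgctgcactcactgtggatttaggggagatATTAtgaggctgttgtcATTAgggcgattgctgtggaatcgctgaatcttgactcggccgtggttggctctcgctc
Cpne4, chr9:104569405-104569704: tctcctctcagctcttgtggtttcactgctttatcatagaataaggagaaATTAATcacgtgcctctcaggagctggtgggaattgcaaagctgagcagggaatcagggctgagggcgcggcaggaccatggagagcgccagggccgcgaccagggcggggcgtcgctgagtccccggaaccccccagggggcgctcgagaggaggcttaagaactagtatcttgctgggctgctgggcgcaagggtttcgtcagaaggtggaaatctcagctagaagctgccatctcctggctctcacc
TAAT (or its reverse complement ATTA) stood 2 times in the window of Pomc, in overlap, 3 times in that of Six3 and 2 times in the first of 2 windows of Cpne4, again in overlap, and was absent from those of Shisa8 and Cd44. It was in 58.0% of all 32851 windows, so these matches are no more than a description. The letters TATAAA, on either strand, were in the window of Pomc, starting at base -25 from the start site, and in none of the windows of the other 4 markers. They were in 13.6% of all windows. G and C made up 59.0% of the window of Pomc, 71.3% of that of Shisa8, 58% of that of Cd44 and 58.7% and 56% of those of Cpne4. The window of Six3, at 50%, was below the median of 52.7% over all windows.

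Levels were next followed across bins of Pomc in marker-checked neurons, since a gene can differ between the groups and still not vary with Pomc inside them. Six3 reached its plateau in the lowest bin of the Pomc-high range. At P5 it stood at 0.521 UMIs per 10000 below 1 Pomc UMI per 10000, 2.71 from 3 to 10, 3.37 from 10 to 20 and 3.89 from 50 to 100, and at P12 at 0.57, 2.62, 3.73 and 4.1. Isl1 was as flat, with 3.09 and 2.89 in those last bins at P5. Shisa8 and Cd44 differed again within the Pomc-high range. At P5, Shisa8 stood at 0.44 (0.392 to 0.492) from 10 to 20 and at 1.33 (1.27 to 1.39) from 50 to 100, and Cd44 at 0.171 (0.142 to 0.205) and 0.522 (0.484 to 0.561). At P12, Cd44 stood at 0.703 (0.628 to 0.784) and 1.16 (1.08 to 1.25) in those bins. Pcsk2, the prohormone convertase that cuts the Pomc protein into its smaller peptides, was higher only in the upper part of that range. At P12 it stood at 0.643, 0.317 and 0.453 below 1, from 3 to 10 and from 10 to 20, and at 2.03 (1.93 to 2.15) from 50 to 100. The highest bin, at 100 or more, held 49 neurons at P5 and 32 at P12.

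**Figure D3:**
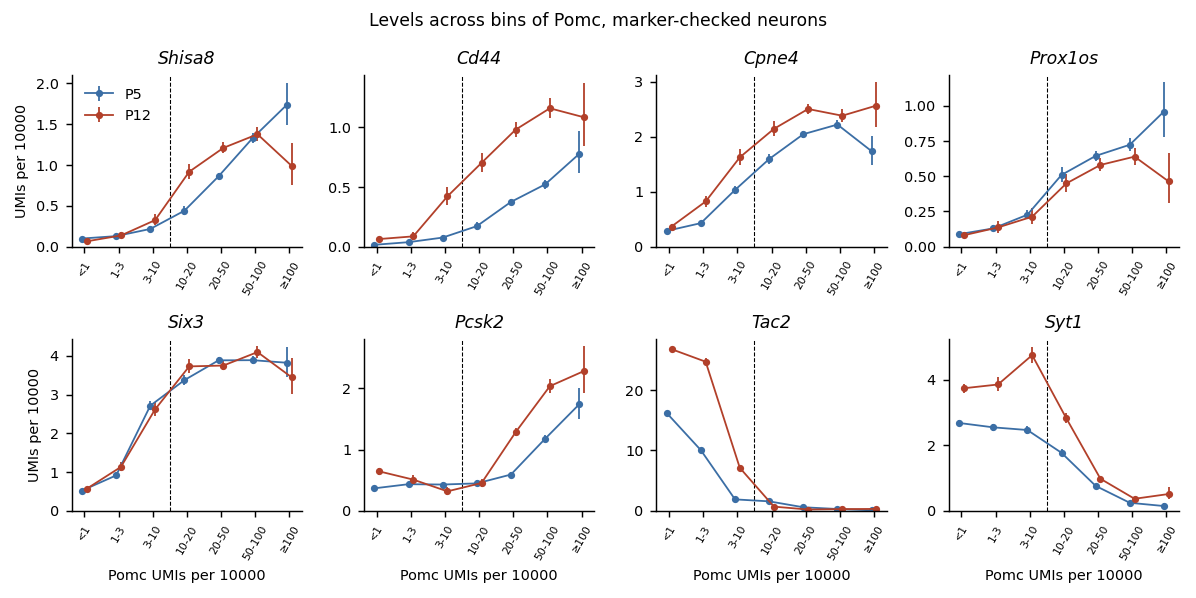
Level in UMIs per 10000 (vertical axis, from 0) of 8 genes in marker-checked neurons across 7 bins of Pomc UMIs per 10000 (horizontal axis), at P5 (blue) and P12 (red); bars are exact 95% Poisson intervals and the dashed line is the limit of 10. Six3 is flat beyond the limit, Shisa8, Cd44 and Pcsk2 are higher further to the right at P5, and Tac2 and Syt1 are low at the right.

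The transcription factors of Pomc neurons were divided. Of 17 listed, 14 were compared at P5 and 15 at P12 in marker-checked neurons, with a median ratio of 1.43 and 1.7, against 0.963 and 0.973 over all genes. Isl1, Prdm12, Six3 and Six6 were past 2-fold higher in both libraries. Over all genes compared in both libraries of marker-checked neurons, 0.728% were higher and 1.88% lower, shares that also stand beside the lists below. Prdm12, which arcuate progenitors need to start Pomc, stood at 0.711 against 0.0741 UMIs per 10000 at P5 and at 0.697 against 0.0303 at P12 by the rule. Its ratio was 9.6-fold (8.34 to 11.1) and 23-fold (17.9 to 30.2), and 17.9-fold (13.3 to 24.9) in marker-checked neurons of P12. Six6, a relative of Six3, was 3.8-fold and 3.02-fold higher in marker-checked neurons, and Isl1, a LIM-homeodomain activator of Pomc, 3.56-fold and 2.31-fold. Nkx2-1, the homeodomain factor of the ventral hypothalamus, was at like levels in marker-checked neurons of both groups, 1.58 against 1.69 at P5 and 1.51 against 1.26 at P12. Tbx3, a T-box factor of arcuate neurons, was 1.51-fold and 1.66-fold higher in them, short of the limit. By the rule Nkx2-1 was 0.966-fold at P5 and 2.03-fold at P12, and Tbx3 1.57-fold and 2.75-fold. Sox3 was past 2-fold higher in both libraries by the rule only. Lower past 2-fold in both were Sox14, at 0.122 against 1.17 and 0.0421 against 0.593, and Bsx, a homeodomain factor of Agrp neurons, at 0.0213 against 0.192 and 0.0188 against 0.208.

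Among the proteins that make peptides from precursors, Pcsk2 alone was past 2-fold in both libraries. Of 10 listed genes it stood at 0.793 against 0.393 at P5 and 1.37 against 0.601 at P12 in marker-checked neurons, 2.02-fold (1.88 to 2.17) and 2.27-fold (2.09 to 2.48) higher. Pcsk1, the convertase that makes the first cuts, was at 0.397 against 0.406 and 0.827 against 0.876. Cpe, which trims the basic residues left by the convertases, was at 4.54 against 5.0 and 4.4 against 5.14. Both were far short of 2-fold in either direction. None of the 9 listed genes of granins and dense core granules was past 2-fold in both libraries, with medians of 0.842 and 0.92.

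Of the other neuropeptides, 6 were lower in marker-checked Pomc-high neurons of both libraries. Of 21 listed besides Pomc, 11 were compared there in both libraries. Npy, Agrp, Sst, Tac2, Adcyap1 and Cck were past 2-fold lower in both and none higher, beside 1.88% of all genes lower. By the rule 10 were compared in both and 5 were lower, with Cck not among them. Tac2, the precursor of neurokinin B, stood at 0.624 against 13 UMIs per 10000 at P5 and at 0.389 against 15 at P12 by the rule. It was 20.9-fold (20.04 to 21.7) and 38.4-fold (36 to 41) lower, and 79.9-fold lower in marker-checked neurons of P12. After thinning, Tac2 had a UMI in 5.47% (4.39 to 6.73) and 6.94% (5.16 to 9.09) of Pomc-high neurons, close to the 4.59% (2.47 to 7.73) and 6.58% (5.23 to 8.16) of microglial reference cells, against 42.5% and 43.2% of Pomc-low neurons. Npy, a peptide that raises food intake, stood at 0.0867 against 2.32 and 0.229 against 4.68, and Agrp, the antagonist of melanocortin receptors, at 0.0132 against 0.442 and 0.0928 against 1.68. At P12 Npy had a UMI in 5.64% (4.04 to 7.62) of thinned Pomc-high neurons, below the 10.8% (9.05 to 12.7) of the reference. Before thinning the reference cells were shallower, with a median of 10242.5 against 33384 UMIs. Whether the Npy UMIs of Pomc-high neurons are their own transcripts or free RNA was not tested. Both peptides were concentrated in few Pomc-low cells. For Npy, 27 of 1445 marker-checked cells at P5 and 32 of 438 at P12 had 10 or more Npy UMIs, and the 10 cells with the most held 73.6% and 59% of its UMIs. For Agrp, 17 and 25 of those cells had 10 or more UMIs, and the top 10 held 79.97% and 62.7%. Gnrh1, the precursor of the hormone that drives gonadotropin release, was 204-fold lower at P5 and 153-fold lower at P12 by the rule, and at P12 its direction reversed in 3 of the alternatives. It rested on 3 Pomc-low cells at P5 and 2 at P12 with 10 or more UMIs, up to 1925 in 1 cell, so it says nothing about the other Pomc-low neurons. Cga, the common subunit of pituitary hormones, was carried in the same way by 2 Pomc-low cells at P12, up to 1671 UMIs, and by 1 Pomc-high cell at P5 with 476.

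Cartpt, a peptide made by many adult POMC neurons, was higher in Pomc-high neurons at P12. It stood at 0.251 against 0.142 at P5, 1.77-fold (1.57 to 2.0), and at 3.07 against 0.773 at P12, 3.97-fold (3.7 to 4.27). Across bins of Pomc its P12 level did not follow Pomc, with 5.0 (4.8 to 5.21) from 10 to 20 and 1.91 (1.81 to 2.02) from 50 to 100.

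Genes of the lists for Tac2 neurons and for Agrp and Otp neurons were mostly lower. In marker-checked neurons, Tac2, its receptor Tacr3, the oestrogen receptor Esr1, Sox14 and Nr5a2 were past 2-fold lower in both libraries, out of 8 compared in both from the list for Tac2 neurons. Esr1 stood at 0.194 against 0.647 and 0.474 against 1.07, and by the rule, at 0.471 against 0.635, it was short of 2-fold at P12. From the list for Agrp and Otp neurons, Agrp, Npy, Sst and the homeodomain gene Otp were lower, 4 of 5 compared in both. Otp stood at 0.0201 against 0.292 and 0.0237 against 0.816. These lists mark the mix of cells in the Pomc-low group, so each ratio depends on how many such cells that library held.

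Of the transmitter genes, 3 of 7 compared were past 2-fold in both libraries of marker-checked neurons. Slc18a2, the vesicular transporter of monoamines, was higher, at 0.189 against 0.0837 at P5 and 1.27 against 0.181 at P12, or 2.25-fold (1.94 to 2.63) and 6.99-fold (6.05 to 8.12). Slc17a6, the vesicular glutamate transporter, was lower, at 0.664 against 1.73 and 0.841 against 2.48. Slc32a1, which loads GABA into vesicles, was lower too, at 0.054 against 0.318 and 0.0515 against 0.792, while the GABA-making enzyme Gad1 was at 0.605 against 0.627 and 0.874 against 1.12 and Gad2 at 0.257 against 0.158 and 1.16 against 0.798. Both GABA enzymes were thus short of 2-fold in either direction.

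Of 26 listed G protein-coupled receptors, 12 were compared in both libraries of marker-checked neurons, with 3 past 2-fold higher and 1 lower in both. Over all genes 0.728% were higher and 1.88% lower. By the rule 11 receptors were compared, again with 3 higher and 1 lower. Prokr1, a receptor for prokineticins, stood at 0.22 against 0.0124 and 0.465 against 0.0157 in marker-checked neurons, 17.7-fold (12.5 to 25.8) and 29.6-fold (18.4 to 51) higher. The receptors for neuropeptide Y, Npy1r and Npy2r, were 5.83-fold and 4.16-fold higher at P5 and 2.96-fold and 2.31-fold at P12. Tacr3 was lower, at 0.0167 against 0.327 and 0.0233 against 0.534. Of 12 listed channels, Kcnj3, a subunit of G protein-gated potassium channels, was 2.31-fold and 2.13-fold higher, and Trpc5, a cation channel, stood at 0.224 against 0.618 and 0.287 against 0.702.

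Few relatives of the markers were past 2-fold. Six3 and Six6 were the 2 genes of their family that were compared, and both were higher. Of 17 listed AMPA receptor subunits and auxiliary proteins, 13 were compared in both libraries of marker-checked neurons, with Shisa8 past 2-fold higher and Cacng3 and Gsg1l lower. Gsg1l stood at 0.0351 against 0.191 and 0.0246 against 0.262. Of the copines Cpne4 was higher and Cpne8 lower among 5 compared in both, and Cd44 was the only gene past 2-fold in both among 3 of its list of hyaluronan receptors and matrix. Among 9 compared genes of neuronal maturity, Sox4 and Sox11, transcription factors of young neurons, were lower past 2-fold in both, and no other gene of the list was past 2-fold in both. The median ratios of the list were 0.888 and 0.848, and by the rule Sox4 alone was past 2-fold in both. Sox4 stood at 1.42 against 3.21 and 0.367 against 1.22, and Sox11 at 0.867 against 2.54 and 0.298 against 0.772.

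Of the other lists, Gpr101, an orphan receptor, was higher past 2-fold in both libraries among the 4 genes for Irs4 neurons, at 0.637 against 0.256 and 2.01 against 0.803, while Irs4 itself was 1.47-fold and 1.42-fold higher. The list did not go 1 way: in marker-checked neurons the median ratio of the 4 was 1.17 at P5 and 0.968 at P12, where 1 of them was past 2-fold lower. Among 17 genes of hormone signalling, 14 were compared in both and Esr1 alone was past 2-fold, and the leptin receptor Lepr was too low to be compared, at 0.0194 against 0.00641 and 0.047 against 0.0222. Ier2, an immediate early gene, was lower among 8 stress and immediate early genes compared. None of the compared genes of Dlx neurons (1), microglia (1), astrocytes (1), the oligodendrocyte lineage (2) and tanycytes and ependyma (1) was past 2-fold in both libraries of marker-checked neurons. The check selected cells on the microglial, astrocyte, oligodendrocyte, leptomeningeal and endothelial lists, so the low values of those lists were largely set by it and are no finding. No gene of the leptomeningeal, endothelial, pituitary and erythrocyte lists was compared in both. The astrocyte genes summed to 1.03 against 0.388 UMIs per 10000 at P5 and to 1.40 against 0.974 at P12. That sum rested mostly on 1 gene, Aldoc, the only one of the list compared at P5, where it was 3.17-fold higher. In the highest Pomc bin of P5 Aldoc stood at 0.845, and Sox9, the next of the list, at 0.0768.

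**Figure D4:**
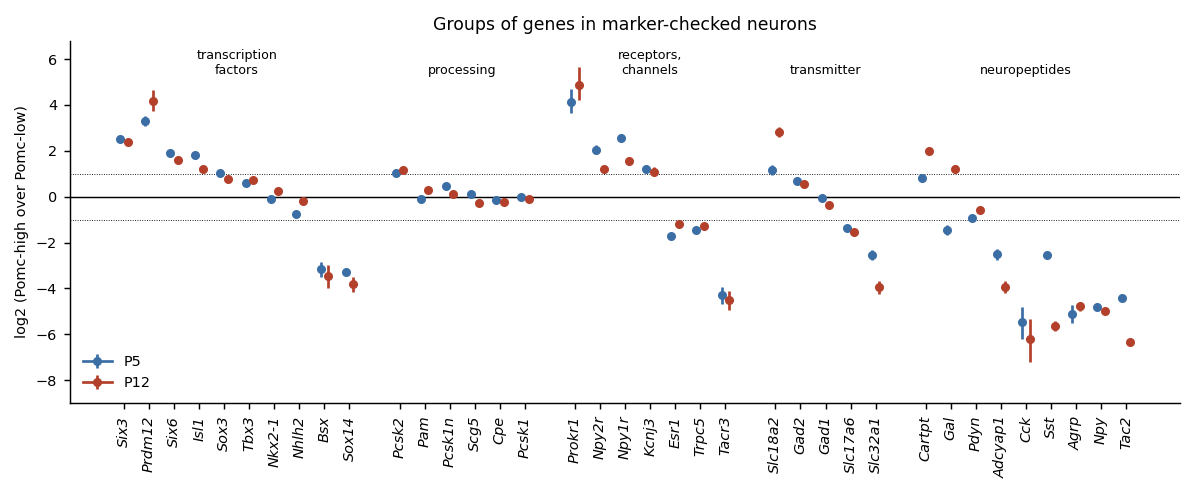
Log2 ratio of Pomc-high over Pomc-low marker-checked neurons (vertical axis) for genes in 5 groups, at P5 (blue) and P12 (red); bars are exact 95% intervals of the ratio for counting error and dotted lines mark 2-fold. Prdm12 and Prokr1 are the highest, Nkx2-1 and the processing genes other than Pcsk2 lie near 0, and the peptides from Adcyap1 to Tac2 lie far below it in both libraries.

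Beyond the lists, the genes with the largest ratios at a level of at least 1 UMI per 10000 were few. By the rule 13 genes qualified on the higher side. In order of the smaller ratio of both libraries they were Pomc, Six3, Cpne4, Dlk1, Rnf128, Six6, Isl1, Calb1, Car10, Rasgrf2, Tmeff2, Gabrg3 and Vstm2l, and 12 of them, all but Vstm2l, qualified in marker-checked neurons too. Dlk1, an imprinted gene for a relative of the Notch ligands, stood at 4.22 against 0.863 at P5 and 5.07 against 0.875 at P12 by the rule. Its ratio was 4.89-fold (4.69 to 5.11) and 5.79-fold (5.51 to 6.09), and 3.61-fold in marker-checked neurons of P12. Rnf128, a ubiquitin ligase, stood at 1.26 against 0.211 and 3.02 against 0.427, and Calb1, the calcium buffer calbindin, at 2.81 against 0.768 and 5.18 against 0.886. Both were thus higher in level at P12 than at P5 within the Pomc-high neurons. Car10, Rasgrf2, Tmeff2 and Gabrg3 had marker-checked ratios between 2.02 and 2.5.

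On the lower side 23 genes qualified in marker-checked neurons, of which the first 15 were Tac2, Gnrh1, Npy, Sst, Tmem163, Tmem35a, Nell1, Syt1, Chst2, Rprm, Slc17a6, Necab2, Nrp2, Ntrk3 and Pcdh11x. Syt1, the calcium sensor of synaptic vesicle release and one of the 6 genes of the neuron rule, stood at 0.739 against 2.62 and 1.16 against 3.77, 3.55-fold (3.4 to 3.71) and 3.26-fold (3.1 to 3.42) lower. By the rule 0 of those 6 genes were past 2-fold at P12, Syt1 included, and UMIs of Syt1 also count toward passing the marker check. The level of Syt1 was lower at higher Pomc, from 2.46 in the bin from 3 to 10 to 0.243 from 50 to 100 at P5, and from 4.74 to 0.365 at P12. Over the 6 neuronal genes the sum in Pomc-high over Pomc-low neurons was 0.997 at P5 and 0.900 at P12. Chst2, a sulfotransferase, stood at 0.175 against 1.81 and 0.559 against 1.89, and Tmem35a, a chaperone of nicotinic receptors, at 0.199 against 1.62 and 0.375 against 1.85. Tmem163, Nell1, Rprm, Necab2, Nrp2, Ntrk3 and Pcdh11x were lower by 2.45-fold to 5.66-fold over both libraries. By the rule Sox4 and Ucp2, a mitochondrial carrier, also stood among the first 15, and Ucp2 was 2.38-fold lower at P12 by the rule and 1.66-fold in marker-checked neurons.

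The Pomc-high neurons were then placed among clusters of all neurons of their library, made from 2000 variable genes without the 6 markers. These clusters are given by number and leading genes, and every gene of these cells counts as used in making them. At P5 most Pomc-high neurons lay in 3 of 12 clusters: 698 (44.4%) in cluster 3, 521 (33.1%) in cluster 5 and 196 (12.5%) in cluster 2. At P12, 446 (58.1%) lay in cluster 6 of 13, 17.6% in cluster 10 and 99 (12.9%) in cluster 5. Clusters in which Pomc-high neurons were the majority held 90.01% (88.4 to 91.5) of them at P5 and 80.9% (77.9 to 83.6) at P12, and 7.74% and 1.41% of the Pomc-low neurons by the rule. At P12 these were clusters 6, 8 and 10, and not cluster 5, which was 49.5% Pomc-high. P12 cluster 8, with 40 Pomc-high neurons, had a median of 3920 UMIs per cell and was led by the noncoding genes Mirg and Miat, and 30 of its 59 cells failed the marker check.

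Among themselves the Pomc-high neurons differed by cluster in the same genes at both ages. In P5 cluster 3 and P12 cluster 6, led by Dlk1 or Pomc, Pomc stood at 58 and 51.8 in marker-checked Pomc-high neurons, Pcsk2 at 1.45 and 2.0 and Dlk1 at 6.65 and 6.45. In P5 cluster 5 and P12 cluster 10, both led by D930028M14Rik and Sncg, Pcsk2 stood at 0.244 and 0.172 and Pomc at 38.1 and 29.1. The higher Pcsk2 of Pomc-high neurons thus lay in the first pair of clusters, and not in the second. In P5 cluster 2 and P12 cluster 5, both led by Calcr, the calcitonin receptor gene, Pomc was lowest of the 3 pairs, at 25.2 and 25, and Prdm12 stood at 0.0929 and 0.0667, against 0.654 and 0.762 in the first pair. Prox1os was also lowest there, at 0.181 and 0.257, while Six3 differed little over the 6 clusters, from 2.98 to 4.03. Syt1 stood at 3.66 and 5.7 in the Calcr-led clusters, and reached no more than 0.722 in the other 4. Cartpt was highest at P12 in cluster 10, at 7.52, against 1.47 in cluster 6, and Cd44 was lowest there, at 0.271 against 1.21.

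**Figure D5:**
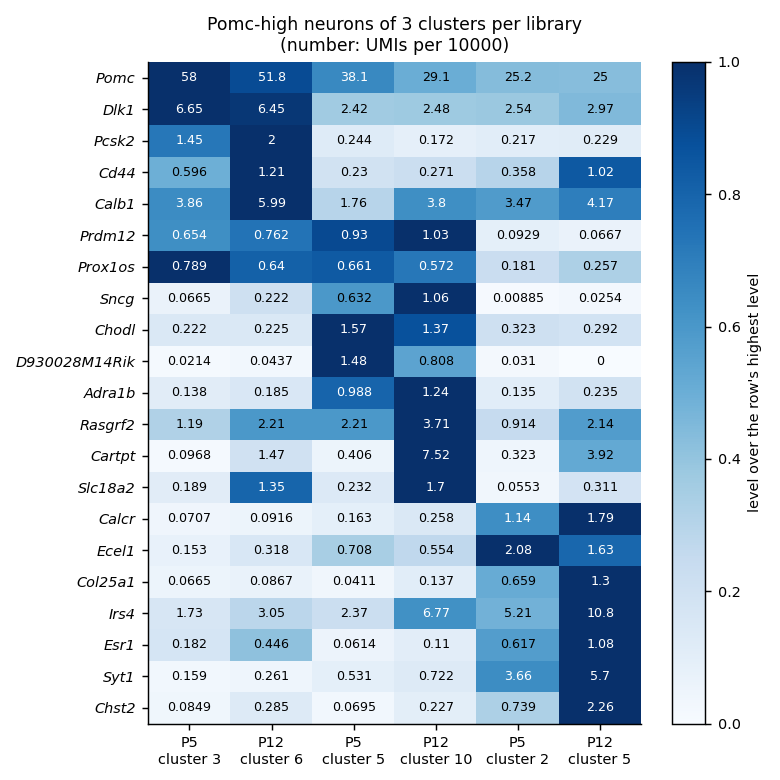
Levels of 21 genes (rows; the number in each cell is UMIs per 10000) in marker-checked Pomc-high neurons of 3 clusters at P5 and 3 at P12 (columns), shaded by the share of the highest level of the row. Pcsk2 is dark in the first pair of columns only, D930028M14Rik and Chodl in the second pair, and Calcr, Col25a1 and Syt1 in the third.

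The contrast was repeated within clusters that held at least 50 neurons of each group by the rule, among them the Calcr-led clusters. Marker-checked neurons there were 196 Pomc-high against 78 Pomc-low in P5 cluster 2 and 94 against 41 in P12 cluster 5. After the check, the Pomc-low neurons of P12 cluster 5 were thus fewer than 50. Dlk1 stood there at 2.54 against 0.207 and 2.97 against 0.295, 12.3-fold (8.81 to 17.6) and 10.1-fold (7.36 to 14.1) higher. Shisa8 was 7.56-fold (4.14 to 15.4) and 12-fold (6.94 to 22.8) higher, Prox1os 6.32-fold (2.6 to 19.97) and 3.97-fold (1.99 to 9.0), and Cd44 5.67-fold (3.09 to 11.6) and 3.37-fold (2.44 to 4.77). These 4 genes were thus past 2-fold among neurons of the same cluster. Cpne4 was not, with 1.63-fold (1.36 to 1.97) and 1.12-fold (0.97 to 1.31), nor Isl1, with 0.983-fold (0.88 to 1.1) and 1.11-fold (0.959 to 1.3), nor Syt1, with 0.845-fold (0.775 to 0.922) and 0.934-fold (0.861 to 1.01). Six3 was 3.19-fold (2.71 to 3.77) and 1.69-fold (1.48 to 1.93). Of the 8468 genes compared in P5 cluster 2, 52 were at least 2-fold higher and 74 lower. In P12 cluster 5 the counts were 77 higher and 153 lower, given without a share, so they are not set against other counts. All these counts rest on few cells. Over all marker-checked neurons the counts were 96 higher and 226 lower of 8732 genes at P5, and 96 higher and 308 lower of 9102 at P12. In P5 cluster 4, led by Fabp7, with 76 against 89 neurons, Cd44 was 7.77-fold (3.32 to 22.2) and Shisa8 0.563-fold (0.313 to 0.988).

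The same limits were applied to the 4 embryonic libraries, where reagents and the list of genes differ from the postnatal ones, so that ratios are set side by side without a comparison. Cd44 was higher in Pomc-high neurons at each age, with ratios from E11.5 to E17.5 of 44.8, 32.9, 21.7 and 28.1 in turn. Prox1os was higher at each age too, by 3.19, 6.82, 3.25 and 2.02, and Six3 by 11, 3.87, 1.75 and 1.65. Shisa8 was at 0.00343 against 0.024 UMIs per 10000 at E11.5 and 0.0243 against 0.0126 at E13.5, and its ratio was 9.72 at E15.5 and 5.28 at E17.5. Cpne4 had ratios of 5.78, 0.806, 4.51 and 9.85. Sox14 changed sides, from 8.31 at E11.5 through 2.27 and 0.653 to 0.193 at E17.5. Nkx2-1 had ratios of 10.5, 3.61, 1.53 and 1.2. Of the Pomc-low embryonic cells 77 of 759, 70 of 1096, 47 of 1210 and 2 of 556 failed the marker check, so what share of these ratios comes from other cell types was not tested.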

How the data were processed

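The 6 libraries were deposited as UMI counts per gene and cell. Per the labels, the counts come from Cell Ranger (versions 2.2.0 and 3.0.0 in the submitters' processing notes, which also name Seurat 3.0 and build mm10) and the authors deposited only cells in which Pomc had 1 UMI or more. Members, gene lists and limits were chosen with earlier results of these data known, and the marker check was added after seeing the data.

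Levels are summed UMIs per 10000. Genes with a mean level of at least 0.1 over both groups were compared, and 2-fold counted as higher or lower, with exact binomial intervals of 95%. Named are the 6 markers, list genes past 2-fold in both libraries or needed as an exception, and the 15 genes each way with the largest smaller ratio of P5 and P12 (0.1 added to both levels) at 1 UMI per 10000 or more on the higher side. Shares of cells were taken after thinning to 3000 UMIs. Clusters (scanpy 1.11.5, Leiden resolution 0.5, 30 components, 30 neighbours) left out the 6 markers. The scripts used Python 3.11.15, numpy 2.4.6, scipy 1.17.1 and pandas 2.3.3, and the contrast was tested on simulated data. Doublets were not removed, other than in an alternative that dropped the top 5% of cells by Scrublet score. Gene positions are those of GENCODE on GRCm38. A few listed genes are not reported here.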

Additional observations from a re-analysis of the deposited data

Results flagged for a closer look

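Gal, the precursor of the peptide galanin, stood on opposite sides in the 2 postnatal libraries. Its ratio of Pomc-high over Pomc-low neurons was 3.98 at P12 against 0.377 at P5 by the rule, and 2.29 against 0.364 in marker-checked neurons. The levels in marker-checked neurons were 0.0724 against 0.199 UMIs per 10000 at P5 and 0.769 against 0.335 at P12. Among Pomc-high neurons of P12 the level was 1.1 in cluster 6, 0.236 in cluster 10 and 0.0603 in cluster 5. With 1 library per age the difference between ages was not tested.

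The gene table of the postnatal libraries has an entry named RFP, which no comparison above uses and whose sequence is not given in the sources used here. At P12 it had a UMI in 1.17% (9 of 768, interval 0.537 to 2.21) of Pomc-high neurons and in 0.0829% (1 of 1206) of Pomc-low neurons, and in 0 of 1174 microglial reference cells, which allows a share of up to 0.256%. At P5 it had a UMI in 1.02% (16 of 1572, interval 0.583 to 1.65) of Pomc-high and 0.320% (5 of 1564) of Pomc-low neurons, and in 0 of 283 reference cells, which allows up to 1.06%. These shares are unthinned, and the Pomc-high neurons were the deeper group.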

How the results depend on the processing

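Each age was 1 library and the results come from no test, so the limits are the choice of cells, the depth and the counting error. No paired analysis was possible because no result comes from a test. Pomc-high and Pomc-low neurons were contrasted within each library, and each age has 1 library. The 6 markers kept their direction and stayed past 2-fold under all 14 alternatives in both libraries. Pomc defines the groups and the other 5 were chosen as markers of them, so this is a description and no support. The ratio of Cpne4 at P12 lay between 4.70 and 13.0, and that of Pomc at P12 between 38.3 and 68.8. Of 124 alternatives for counts, shares and clusters, 80 stayed near the value by the rule and 44 moved. Ratios were recomputed only for the 6 markers and the genes ranked by largest ratio, and not for the other list genes. Of those 1148 alternatives, 521 stayed within the counting interval of the ratio by the rule, 611 moved and 16 reversed.

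Counts of genes higher at P12, 317 by the rule, were 1028 with the mean over cells, 1103 with cells thinned to 3000 UMIs, 629 and 133 at minimum levels of 0.01 and 0.5, 1377 and 67 at 1.5-fold and 3-fold, 95 with 5 of the 6 neuronal genes required, and 96 without neurons with 3 or more microglia genes. In marker-checked neurons they were 96, then 109 after centring on the median gene, 97 with 8000 to 40000 UMIs and 101 without the highest Scrublet scores. Counts lower at P12 were 2818 and 293 at those minimum levels, 462 with 5 neuronal genes, 592 without neurons with microglia genes, and 308, 297, 309 and 315 in the 4 marker-checked settings. At P5 the counts at minimum levels of 0.01 and 0.5 and at 1.5-fold and 3-fold were 266, 25, 259 and 36 higher and 1229, 56, 640 and 153 lower, and in both libraries together 165, 18, 199 and 29 higher and 955, 28, 389 and 105 lower. The first pair differs through the number of genes compared and the second through the fold required.

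Pomc-high neurons were 35.9% of neurons at P5 and 27.6% at P12 with a limit of 20, and at P12 52.7% with 5 neuronal genes, 43.7% without neurons with microglia genes and 55.8% marker-checked. Their share in majority clusters was 94.6% at P5 and 87.9% at P12 with both libraries clustered together, and 92.3% at P12 at resolution 1.

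Reversed ratios belonged to Gnrh1, which rests on a few cells, and to microglial genes, for which the settings remove microglial cells. Gnrh1 at P12 was 3.02 without the highest Scrublet scores, 3.52 without neurons with microglia genes, and 4.10 marker-checked without the highest Scrublet scores. At P5, C1qa was 1.00 without neurons with microglia genes, and 1.02, 1.05 and 1.07 marker-checked, centred and without the highest scores. Selenop was 1.04, 1.08 and 1.11 in those 3 settings and 1.04 with 8000 to 40000 UMIs, Apoe was 1.04 without the highest scores and Tyrobp 1.01 centred. C1qc at P12 was 1.08, 1.11 and 1.08.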
